A study of Homo sapiens with 6 samples.

Results

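The antioxidant, glutathione and NRF2 target genes were examined in SH-SY5Y cells, a human neuroblastoma line that is widely used as a model of adrenergic neurons. The members were a list of 34 gene symbols, found by exact match of the symbol in the count table. The table held 19610 genes, and 33 of the 34 symbols had a row, while SOD2 was not analysed here. After a filter on low counts, 12196 genes were tested, 31 members among them. HMOX1 and GPX8 did not pass the filter and are given as counts.

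All libraries came from SH-SY5Y cells that the labels give as wild type. The control group was 3 libraries from cells given the solvent DMSO, and the treated group was 3 libraries from cells given SGC707, a small-molecule inhibitor of the protein arginine methyltransferase PRMT3. Each group has replicates with the letters A, B and C. The dose, the length of treatment and whether replicates were separate cultures are unstated in the sources used here, so the p-values rest on a spread between libraries that could be technical only.

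NRF2, the protein of NFE2L2, is a transcription factor that switches on genes against oxidants and reactive chemicals. KEAP1 holds it in the cytoplasm and passes it to a ubiquitin ligase, and oxidation of cysteines in KEAP1 lets NRF2 reach the nucleus. There it pairs with small MAF proteins on a DNA motif called the antioxidant response element. The genes it serves make glutathione, reduce peroxides through glutathione peroxidases and peroxiredoxins, keep thioredoxin reduced, supply NADPH and store iron in ferritin. Neurons that make catecholamines also meet oxidants from dopamine breakdown, and SH-SY5Y cells are a common culture model for such work. The catecholamine synthesis gene TH had 0 counts in every library here.

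Total counts were 11658728 to 15437602 per library. The mitochondrially encoded share was 46.7% to 60.7% with DMSO and 24.3% to 37.7% with SGC707, so nuclear genes had 6066305 to 6327895 counts in the DMSO libraries and 7559322 to 8999358 in the SGC707 libraries. SGC707 C stood apart in a trend with GC content, with a Spearman correlation across genes of -0.76 between its deviations from the gene means and transcript GC content, against -0.13 to 0.53 in the other 5 libraries. Of 13 markers of adrenergic neuroblastoma, TH was at 0 counts in all 6 libraries. The summed level of the 13, led by STMN2, was 6153 to 7704 normalised CPM with DMSO and 4954 to 5571 with SGC707. The sums did not overlap, and 0 of the 12 tested markers were called in edgeR. Of all tested genes, 9.78% had every SGC707 library below the DMSO libraries. Normalised CPM (CPM, counts per 1e6) are counts scaled to a common library size by TMM. Markers of other cell types were low, with sums of 6.04 to 9.68 normalised CPM for 8 Schwann-like or mesenchymal genes (SOX10 and FOXD3 at 0), 1.37 to 3.34 for 5 epithelial genes and up to 0.779 for 4 immune genes (PTPRC and CD3E at 0). The part of the marker levels in the results on the members was not tested. With the mitochondrial genes left out of the fit, the median log2 fold change over the tested members was 0.18, against 0.19 with them, and no member was called. In bulk libraries such as these, fewer cells of a type and less RNA per cell cannot be told apart.

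The core of the antioxidant response element, TGACNNNGC on either strand, was looked for in RefSeq promoter windows (GRCh38.p14, 250 bases before to 50 after each start), since it is the motif through which NRF2 acts. Windows were found for 25 of the 33 genes. The core was in a window of 6 of these 25 genes (24%), where 16.1% of all RefSeq genes in the table had it. The sequences below show 8 of the 10 matches, each with 10 bases on either side, 5′ to 3′ on the strand of the gene, with the core in capitals. Where the core lies on the opposite strand, its reverse complement is shown, which begins with GC.
GSTP1, chr11:67583736-67583764, plus strand: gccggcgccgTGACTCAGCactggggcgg
ME1, chr6:83431170-83431198, minus strand: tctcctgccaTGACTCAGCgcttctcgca
TXNRD1, chr12:104215670-104215698, plus strand: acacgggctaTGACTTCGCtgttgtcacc
TXNRD1, second start, chr12:104286920-104286948, plus strand: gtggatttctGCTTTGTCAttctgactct
GCLM, chr1:93909446-93909474, minus strand: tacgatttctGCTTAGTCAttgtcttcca
PGD, chr1:10398853-10398881, plus strand: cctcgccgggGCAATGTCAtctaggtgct
KEAP1, chr19:10502784-10502812, minus strand: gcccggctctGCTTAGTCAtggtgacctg
KEAP1, further upstream, chr19:10502807-10502835, minus strand: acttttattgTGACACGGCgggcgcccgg

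GSTP1 and ME1 carried the same 9 bases, which also hold the AP-1 motif TGAGTCA on the opposite strand. That motif was in windows of 6.05% of all RefSeq genes. GCLM and KEAP1 also shared a core. The other 2 matches reach past the RefSeq start of their window and are not printed. They are 1 in TXNRD1 from -8 to 1 and 1 in ME1 from 12 to 20, counted from that start as 1. Printed stretches can still be transcribed from other starts. Those of GSTP1, PGD, KEAP1 and the second TXNRD1 start lie within the GENCODE span of their gene, and that of GCLM does in part. A match in the letters is a description and not a binding site, and no match in these windows says nothing of elements further away. The log2 fold changes of the 6 genes with a core ran from -0.07 to 0.52, with 3 of 6 positive and a median of 0.04. The 18 tested genes with a window and no core ran from -0.29 to 0.95, with 12 positive and a median of 0.22.

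Levels per kilobase of the longest protein-coding transcript spanned a wide range within the members. FTL, the light chain of the iron store ferritin, led with 286 to 324 normalised CPM per kilobase in the DMSO libraries. It was followed by the glutathione transferase GSTP1 with 155 to 166 and the ferritin heavy chain FTH1 with 120 to 142, and the ranges of these 3 genes did not overlap with DMSO. Next came PRDX2, SOD1 and PGD, with means of 94.9, 85.6 and 84.3 normalised CPM per kilobase and ranges that overlapped. At the lower end of the tested members lay HMOX2 (3.26), GCLM (3.24), NQO1 (3.10) and TXNRD2 (1.67). All 33 members together took 0.281% to 0.402% of the nuclear counts. Their summed level was 1856 ± 35.1 normalised CPM over the DMSO libraries and 1985 ± 286 over the SGC707 libraries (SD, n = 3), a difference smaller than the spread between the SGC707 libraries.

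**Figure D1:**
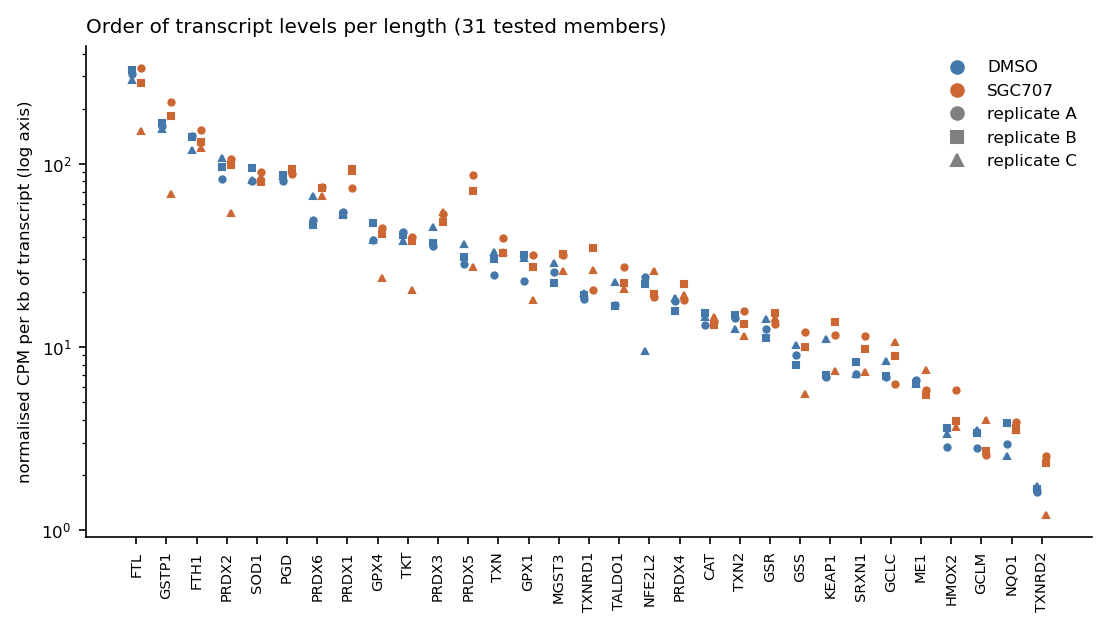
Levels of the 31 tested members in normalised CPM per kilobase of transcript, on a log axis, for each of the 6 libraries and ordered by the DMSO mean. FTL stood highest in the DMSO libraries and TXNRD2 lowest, and the SGC707 C triangle lay below the other SGC707 libraries for FTL, GSTP1, PRDX2, GPX4, TKT and PRDX5.

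No member passed the test of SGC707 against DMSO. In edgeR's quasi-likelihood test with Benjamini-Hochberg adjustment over all 12196 genes, 0 of 31 members were called, with adjusted p from 0.187 to 0.984, where 3 of all tested genes (0.0246%) were called. At an unadjusted p under 0.05, 5 members were higher and 0 lower, beside 5.62% of all tested genes higher and 7.13% lower. These 5 were the peroxiredoxin genes PRDX1, PRDX3, PRDX5 and PRDX6 and the thioredoxin reductase gene TXNRD1. Log2 fold changes were positive for 20 members and negative for 11, with a median of 0.19, against 0.02 over all tested genes. The 3 SGC707 libraries lay above the 3 DMSO libraries for 5 members (PRDX1, PRDX3, TXNRD1, HMOX2 and PGD), beside 10.8% of all tested genes, and below them for 0 members, beside 9.78%.

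Other settings changed these counts. Limma-voom called 0 members, where 2 of all 12196 tested genes were called. It had 4 members at an unadjusted p under 0.05, and the share of all tested genes at that level was not computed for it. DESeq2 called 1 member, PRDX1 (0.308% of its genes were called higher). Without the library SGC707 C, edgeR called 2 members, PRDX1 and PRDX5, higher (3.73% of all tested genes were). With scaling by library totals alone, under which the median over all tested genes was 0.69, all 31 members had positive values and 13 were called (21.1% of all tested genes were called higher).

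**Figure D2:**
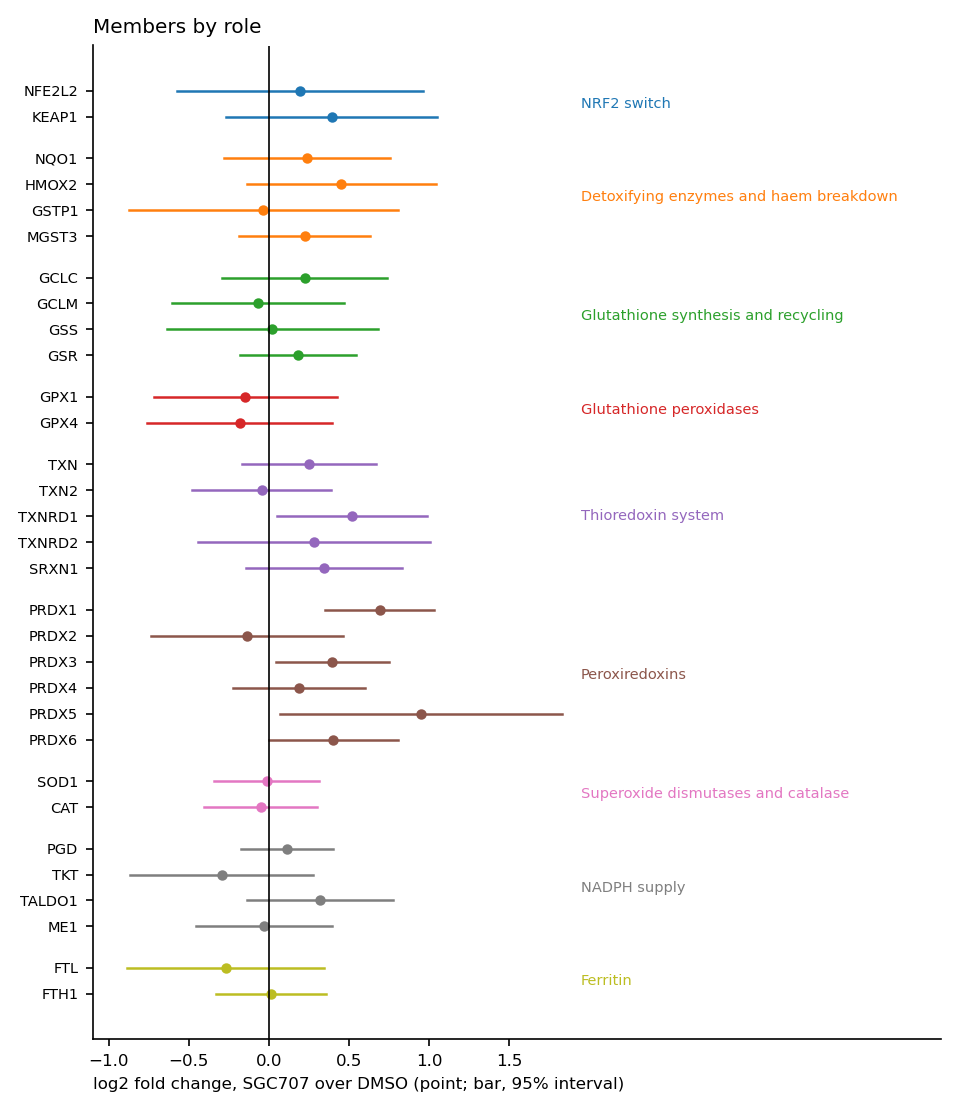
Log2 fold change of SGC707 over DMSO for the 31 tested members (points, edgeR) with 95% intervals (bars), grouped by role. The intervals of PRDX1, PRDX3, PRDX5, PRDX6 and TXNRD1 lie above 0, and those of the other 26 members span 0.

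The NRF2 switch itself varied between libraries of the same group. NFE2L2 (GRCh38 chromosome 2, 177227595 to 177392697) stood at 68.9, 63.2 and 27.2 normalised CPM with DMSO and at 53.1, 55.2 and 74.1 with SGC707, here and below in the order A, B, C. DMSO C was the lowest library and SGC707 C the highest, and the groups overlapped. The log2 fold change was 0.20 (95% interval -0.57 to 0.97, adjusted p = 0.845 in edgeR), and it was -0.12 without DMSO C and 0.03 without SGC707 C. KEAP1 (chromosome 19, 10486120 to 10503741) stood at 20.2, 20.8 and 32.5 normalised CPM with DMSO and 34.2, 40.4 and 21.8 with SGC707. DMSO C was here the highest DMSO library and SGC707 C the lowest SGC707 library. Its log2 fold change was 0.39 (95% interval -0.27 to 1.05, adjusted p = 0.597 in edgeR), 0.60 without SGC707 C, 0.64 without DMSO C and 0.19 without SGC707 B. The level of NFE2L2 over that of KEAP1, per kilobase, was 3.53, 3.14 and 0.866 with DMSO and 1.61, 1.42 and 3.52 with SGC707. The lowest and the highest of the 6 ratios were both found with DMSO.

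Peroxiredoxins are abundant thiol enzymes that reduce hydrogen peroxide and lipid peroxides, and 5 of the 6 genes had positive log2 fold changes. PRDX1 (chromosome 1, 45511036 to 45523047), a cytosolic form, stood at 67.05, 64.9 and 65.6 normalised CPM with DMSO and at 91.1, 115.8 and 112.3 with SGC707. The DMSO libraries were nearly equal and every SGC707 library lay above them. The log2 fold change was 0.69 (SE 0.15, adjusted p = 0.187 in edgeR), and it ran from 0.63 to 0.79 with each library left out in turn. PRDX1 passed in DESeq2 (adjusted p = 0.0174) and in edgeR without SGC707 C (adjusted p = 0.0318). It did not pass with any other library left out. There the edgeR adjusted p was 0.702 without DMSO A, 0.734 without DMSO B and 0.208 without DMSO C. It was 0.236 without SGC707 A and 0.607 without SGC707 B. After a correction for GC content and length, PRDX1 had an edgeR adjusted p of 0.0846.

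PRDX3 (chromosome 10, 119167703 to 119178833), the peroxiredoxin of the mitochondrial matrix, stood at 56.5, 59.0 and 71.9 normalised CPM with DMSO and at 84.1, 76.2 and 86.4 with SGC707. The groups did not overlap, with DMSO C close to SGC707 B. The log2 fold change was 0.40 (SE 0.15, adjusted p = 0.349 in edgeR). PRDX6 (chromosome 1, 173477266 to 173488807), a form with a single active cysteine that also repairs oxidised phospholipids, stood at 86.8, 81.4 and 117.3 with DMSO and at 131.2, 129.4 and 116.98 with SGC707. Here DMSO C lay just above SGC707 C, so the groups overlapped. The log2 fold change was 0.40 (SE 0.17, adjusted p = 0.389 in edgeR).

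PRDX5 (chromosome 11, 64318088 to 64321811), a form found in mitochondria, peroxisomes and cytosol, had the highest log2 fold change of the members at 0.95 (SE 0.38, adjusted p = 0.363 in edgeR). Its levels were 25.4, 27.5 and 32.7 normalised CPM with DMSO and 77.8, 63.0 and 24.3 with SGC707. SGC707 A and B were far above the DMSO libraries and SGC707 C was below all of them. Without SGC707 C the log2 fold change was 1.30 and passed (adjusted p = 0.0272 in edgeR), and without SGC707 A it was 0.62. PRDX5 has a GC content of 61.5%, and its value after the correction for GC content and length was 0.79 (adjusted p = 0.0644 in edgeR). The endoplasmic reticulum form PRDX4 (0.19, adjusted p = 0.696 in edgeR) and the cytosolic PRDX2 (-0.14, adjusted p = 0.864 in edgeR) had intervals on both sides of 0. The value of PRDX4 was 0.10 without SGC707 B, 0.12 without DMSO B and 0.04 after that correction. PRDX2 stood at 52.8 normalised CPM in SGC707 C against 81.1 to 105.8 in the other 5 libraries, and its log2 fold change was 0.11 without that library.

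The thioredoxin system passes electrons from NADPH to peroxiredoxins, and 4 of its 5 genes had positive log2 fold changes. TXNRD1 (chromosome 12, 104215779 to 104350305), the cytosolic reductase and a classical NRF2 target, stood at 77.6, 82.0 and 83.9 normalised CPM with DMSO and at 87.3, 149.1 and 112.6 with SGC707. Every SGC707 library lay above the DMSO libraries, SGC707 A only slightly. The log2 fold change was 0.52 (SE 0.20, adjusted p = 0.354 in edgeR), 0.30 without SGC707 B and 0.69 without SGC707 A. SRXN1 (chromosome 20, 646615 to 653370), sulfiredoxin, which repairs over-oxidised peroxiredoxins, stood at 19.2, 22.2 and 19.3 normalised CPM with DMSO and at 31.1, 26.2 and 19.7 with SGC707. SGC707 C lay within the DMSO range. The log2 fold change was 0.35 (SE 0.21, adjusted p = 0.529 in edgeR), and 0.19 without SGC707 A. Thioredoxin itself, TXN (chromosome 9, 110243811 to 110256640), stood at 21.6, 26.2 and 28.8 with DMSO and at 34.1, 28.2 and 28.7 with SGC707, with overlapping groups, a log2 fold change of 0.25 (adjusted p = 0.597 in edgeR), and 0.14 without DMSO A. The mitochondrial pair TXN2 (-0.05) and TXNRD2 (0.28) had edgeR adjusted p of 0.943 and 0.741, and TXNRD2 was 0.08 without SGC707 A and 0.53 without SGC707 C. TXNRD2 was near constant with DMSO, at 5.05, 5.28 and 5.49 normalised CPM, and varied with SGC707, at 8.04, 7.30 and 3.82.

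**Figure D3:**
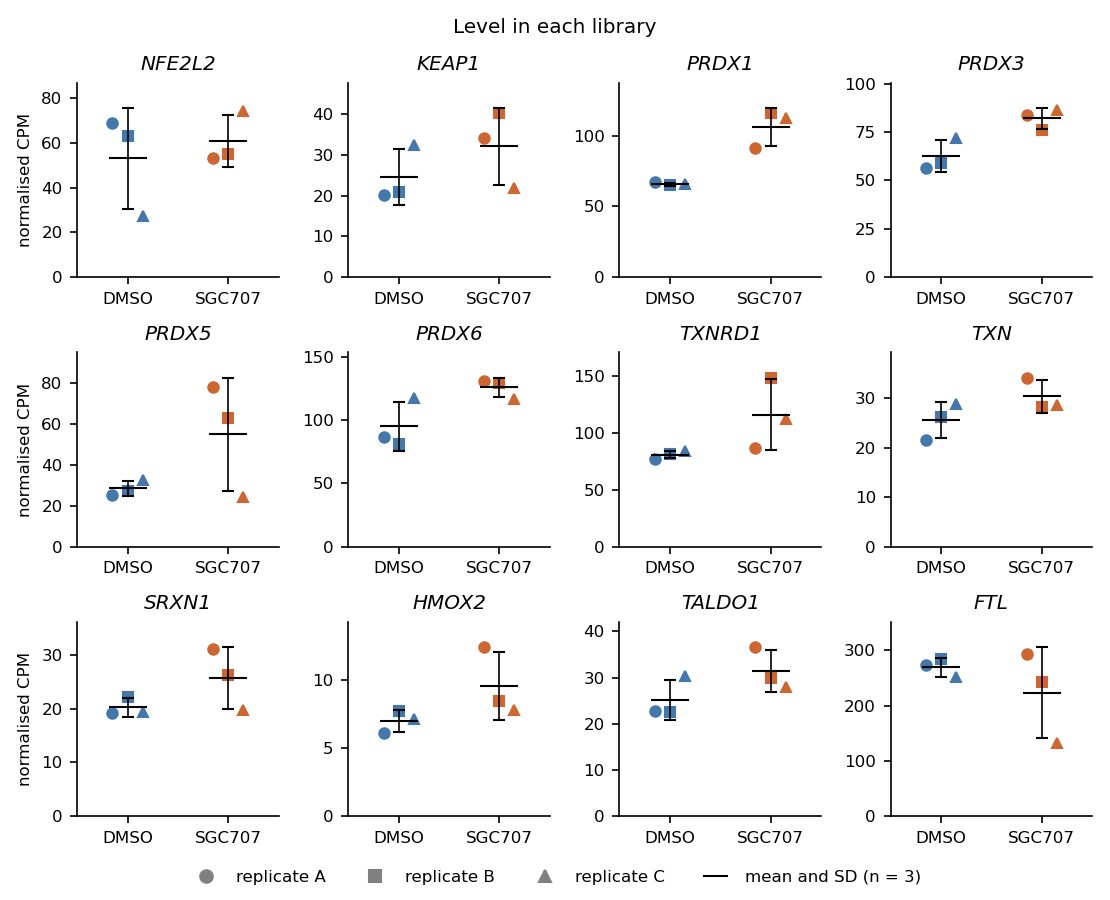
Normalised CPM of 12 members in each library (symbols mark the replicate letter) with the group mean and SD (n = 3). PRDX1, PRDX3, TXNRD1 and HMOX2 have all SGC707 points above the DMSO points, while PRDX5 and FTL have SGC707 C below all DMSO libraries.

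Glutathione is made in steps by glutamate-cysteine ligase, with the catalytic subunit GCLC and the modifier GCLM, and by glutathione synthetase GSS, and the reductase GSR recycles its oxidised form. None of these 4 genes passed, with log2 fold changes of 0.22 for GCLC, -0.07 for GCLM, 0.02 for GSS and 0.18 for GSR (edgeR adjusted p from 0.663 to 0.984). GCLC stood at 26.2, 26.5 and 31.9 normalised CPM with DMSO and at 24.0, 34.1 and 40.7 with SGC707, so the SGC707 libraries lay on both sides of the DMSO libraries. Its log2 fold change was 0.04 without SGC707 C. GCLM, a textbook NRF2 target, stood at 13.6, 16.4 and 17.1 with DMSO and at 12.4, 13.1 and 19.4 with SGC707, again on both sides, and its log2 fold change was -0.30 without SGC707 C. GSR, the leading gene of the set by counts, ran from 35.9 to 45.2 normalised CPM with DMSO and from 42.4 to 49.1 with SGC707, so its groups overlapped.

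Glutathione peroxidases use glutathione to reduce peroxides, and GPX4 is the form that protects membrane lipids from ferroptosis. GPX4 stood at 38.6, 47.6 and 38.6 normalised CPM with DMSO and at 44.5, 41.6 and 23.7 with SGC707, with a log2 change of -0.18 (95% interval -0.76 to 0.40, adjusted p = 0.791 in edgeR). GPX1, the cytosolic form, had -0.15 (95% interval -0.72 to 0.42, adjusted p = 0.843 in edgeR). In both genes SGC707 C was the lowest of the 6 libraries, and without it their log2 fold changes were 0.04 and 0.05. GPX8, a form of the endoplasmic reticulum, had 0 counts in the 3 DMSO libraries and 2, 0 and 1 with SGC707, and this depth could not show a difference. At 0 counts, as many as 3 would be allowed, which is 0.181 to 0.293 normalised CPM, by counting error alone.

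Among the detoxifying enzymes, NQO1, a quinone reductase and a standard NRF2 reporter gene, stood at 8.58, 11.1 and 7.38 normalised CPM with DMSO and at 11.3, 10.4 and 10.2 with SGC707. The SGC707 values lay near the top of the DMSO range and overlapped it, with a log2 change of 0.24 (95% interval -0.28 to 0.75, adjusted p = 0.687 in edgeR), 0.11 without DMSO C and 0.41 without DMSO B. HMOX1, the inducible haem oxygenase, had 9, 0 and 0 counts with DMSO and 6, 3 and 0 with SGC707, too few to test. HMOX2 (chromosome 16, 4474690 to 4510347), the constitutive haem oxygenase, stood at 6.10, 7.72 and 7.20 normalised CPM with DMSO and at 12.4, 8.49 and 7.79 with SGC707. Its groups did not overlap, but SGC707 C lay next to DMSO B, and the log2 fold change was 0.45 (SE 0.26, adjusted p = 0.504 in edgeR) and 0.22 without SGC707 A. GSTP1 stood at 154.0, 159.4 and 149.2 normalised CPM with DMSO and at 209.3, 175.8 and 66.1 with SGC707. SGC707 A and B lay above the DMSO libraries and SGC707 C far below them, for a log2 fold change of -0.04 (adjusted p = 0.978 in edgeR) and of 0.32 without SGC707 C. The microsomal glutathione transferase MGST3 had 0.22 (adjusted p = 0.631 in edgeR).

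SOD1, the copper and zinc superoxide dismutase, and catalase, CAT, which splits hydrogen peroxide in peroxisomes, had log2 fold changes close to 0. SOD1 stood at 77.9, 91.6 and 78.7 normalised CPM with DMSO and at 87.2, 76.5 and 82.1 with SGC707, with a log2 change of -0.01 (95% interval -0.34 to 0.31, adjusted p = 0.978 in edgeR). CAT stood at 30.2, 35.2 and 33.3 with DMSO and at 31.4, 30.3 and 33.7 with SGC707, with a log2 change of -0.05 (95% interval -0.40 to 0.30, adjusted p = 0.919 in edgeR). In both genes the libraries of the groups intermingled.

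NADPH for these reactions comes from the pentose phosphate pathway and malic enzyme. PGD, which makes NADPH from 6-phosphogluconate, stood at 151.4, 163.3 and 161.9 normalised CPM with DMSO and at 166.0, 175.3 and 174.2 with SGC707. Every SGC707 library lay above the DMSO libraries, by a small margin, with a log2 change of 0.11 (95% interval -0.17 to 0.40, adjusted p = 0.735 in edgeR). TALDO1, transaldolase (chromosome 11, 747329 to 765024), stood at 22.8, 22.6 and 30.2 with DMSO and at 36.6, 29.9 and 27.9 with SGC707, with overlapping groups and a log2 change of 0.32 (SE 0.20, adjusted p = 0.533 in edgeR), or 0.20 without SGC707 A. Transketolase, TKT, had the lowest log2 fold change of the members at -0.29 (95% interval -0.87 to 0.28, adjusted p = 0.648 in edgeR). It stood at 61.6 normalised CPM in SGC707 C and at 113.9 to 127.8 in the other 5 libraries, and its log2 fold change without SGC707 C was -0.05. ME1, malic enzyme, had -0.03 (adjusted p = 0.958 in edgeR).

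Ferritin showed the same library apart. FTL stood at 272.5, 284.9 and 250.7 normalised CPM with DMSO and at 293.3, 243.3 and 132.9 with SGC707, and FTH1 at 174.7, 172.3 and 146.9 and at 186.8, 162.1 and 149.5. The FTL value of SGC707 C was far below the other 5 libraries, whereas that of FTH1 lay within their range. Log2 fold changes were -0.27 for FTL (95% interval -0.89 to 0.35, adjusted p = 0.704 in edgeR) and 0.01 for FTH1 (adjusted p = 0.980 in edgeR). That of FTL was -0.01 without SGC707 C. After the correction for GC content and length it was -0.44 (adjusted p = 0.0938 in edgeR). GENCODE names 25 pseudogenes of FTH1, 16 of FTL and 7 of TXN. Among the other members it names 4 of PRDX2, 4 of PRDX3, 3 of SOD1, 2 of GPX1 and 1 each of PRDX1, PRDX4, GSTP1 and PGD. How the authors counted reads shared with these pseudogenes is unknown here, so the counts of these genes are uncertain. The strand setting of the counting is also not given, and NFE2L2, HMOX2, PRDX1, FTH1, GPX8 and TXNRD2 overlap a protein-coding gene on the opposite strand, as PRDX2, SRXN1 and TXNRD1 do on the same strand.

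Within the SGC707 group, the members parted by the GC content of their transcripts. Of 12 members with at least 55% GC, 12 were lower in SGC707 C than in the mean of SGC707 A and B, with a median difference of -0.88 in log2(normalised CPM + 0.5). Of 12 members under 47% GC, 5 were lower, with a median difference of 0.06. In between, at 47% to 55% GC, 4 of 7 members were lower. The same counts were not made over all tested genes. GSTP1 (63.7% GC) differed by -1.53 and PRDX5 by -1.51, while GCLM (37.3% GC) differed by 0.58 and GCLC (44.3% GC) by 0.50. Across the 31 members Pearson's r between the difference and GC content was -0.85, and across 12111 tested genes it was -0.74. These genes share 3 libraries and are not independent replicates, and the trend is one of the whole library. The mean of SGC707 A and B lay above the DMSO mean by a median of 0.22 in the GC-rich members and of 0.21 in the GC-poor ones. Pearson's r of that difference with GC content was 0.33 across the 31 members and 0.24 across the 12111 tested genes. SGC707 C lay below the DMSO mean by a median difference of -0.53 in the GC-rich members and above it by 0.26 in the GC-poor ones. After the correction for GC content and length the median over the tested members was 0.07, with 18 positive and 13 negative values. In that setting 0 members were called, where 63 of all 12196 tested genes were called. In that edgeR fit 4 members were higher and 2 lower at an unadjusted p under 0.05. The share of all tested genes at that level was not computed for this setting.

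**Figure D4:**
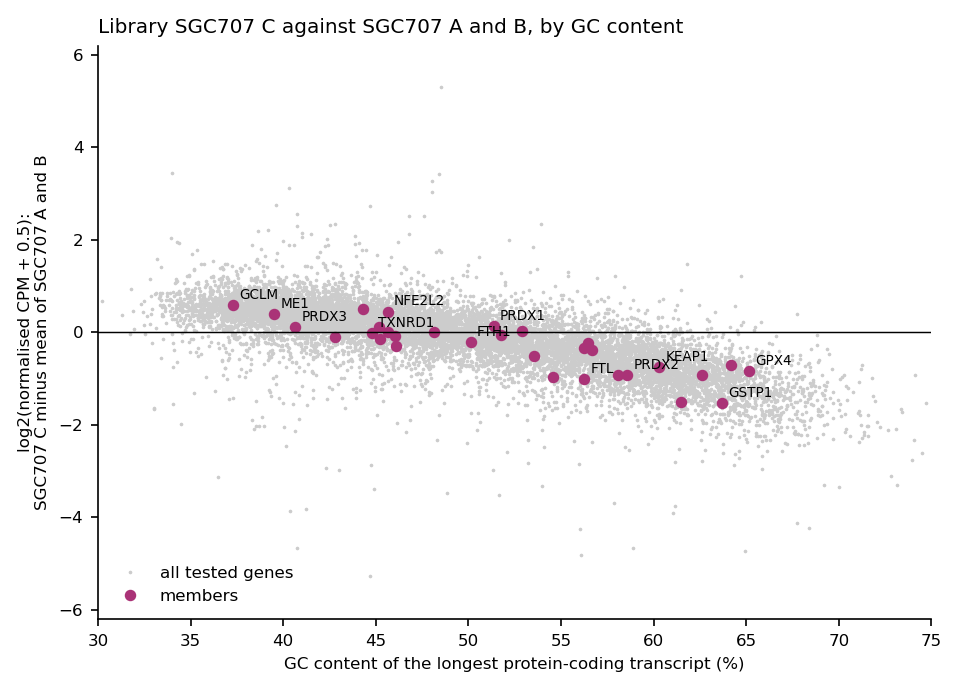
Difference in log2(normalised CPM + 0.5) between SGC707 C and the mean of SGC707 A and B against the GC content of the longest protein-coding transcript, for members (large points) and all tested genes (grey). Members with a high GC content, such as GSTP1 and FTL, lie below 0, and GC-poor members such as GCLM and NFE2L2 lie above it.

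A wider list of 108 other genes of NRF2 control, glutathione, thiol and NADPH metabolism, haem and iron was tested in the same fit. Of these, 107 were in the table and 95 were tested, and 0 passed in either direction in edgeR, with 9 higher and 1 lower at an unadjusted p under 0.05, beside 5.62% and 7.13% of all tested genes. Log2 fold changes were positive for 68 and negative for 27, with a median of 0.095, beside 6440 positive of 12196 and a median of 0.02 over all tested genes. The 3 SGC707 libraries lay above the 3 DMSO libraries for 12 of the 95, beside 10.8% of all tested genes. They lay below them for 4, beside 9.78%. The 5 genes with the smallest p were among those 12. PARK7 (DJ-1), an oxidant-sensing protein linked to Parkinson disease, stood at 56.6 ± 7.06 and 83.7 ± 5.47 normalised CPM (mean ± SD over n = 3 libraries), and its log2 fold change was 0.56 (adjusted p = 0.249 in edgeR). The biliverdin reductase gene BLVRA had 0.64 (adjusted p = 0.260 in edgeR), the thioredoxin-binding gene TXNIP 0.49 (0.285), the transferrin receptor gene TFRC 0.51 (0.298) and the pentose phosphate gene RPIA 0.70 (0.315). SLC7A11, the cystine transporter that feeds glutathione synthesis, stood at 3.15, 3.42 and 2.97 normalised CPM with DMSO and at 4.35, 4.91 and 5.85 with SGC707 (adjusted p = 0.347 in edgeR). Without SGC707 C, edgeR called CUL3, SLC3A2, PARK7, RPIA, IDH2 and BLVRA, with CUL3 lower and the other 5 higher, beside 3.73% of all tested genes called higher and 5.53% called lower in that setting.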

How the data were processed

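RNA-seq libraries from SH-SY5Y cells, 3 with DMSO and 3 with SGC707, were used as raw counts per gene, as deposited by the authors. HISAT2, StringTie and GRCh38 are named per the submitters' processing notes, with no versions, and the counting tool and strand setting are unstated there. Total counts were 11658728 to 15437602 per library. The members and lists were chosen with earlier results of these data known.

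Genes were filtered with filterByExpr, scaled by TMM and tested with edgeR 4.0.16 (R 4.3.3, robust quasi-likelihood test, Benjamini-Hochberg adjustment over all 12196 tested genes, threshold 0.05), after the code was tested on simulated data. Library totals before scaling included mitochondrial genes. Library pairs within a group differed by more than sampling noise (chi-square of 11.9 to 103.6 per degree of freedom). Alternatives were DESeq2 1.42.0, limma-voom (limma 3.58.1), size factors, library totals alone, other filters, a threshold of 0.01, leaving out mitochondrial genes or each library, a replicate block, and an offset for GC content and length. The GC differences used log2(normalised CPM + 0.5).

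Genes given with all libraries were NFE2L2, KEAP1, the 10 tested members with the smallest p and the leading gene of each role by counts, except GSR, given as ranges. Others, such as NQO1, CAT and FTH1, were added after their values were seen, some of them for the GC trend. Of the wider list, the 5 genes with the smallest p and SLC7A11 were named, and 1 other gene of the rule is not reported here. Summed levels are given with no test. Coordinates, lengths and GC content came from GENCODE 29, which matched 19589 of 19610 symbols, and promoter windows from RefSeq.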

Additional observations from a re-analysis of the deposited data

How the results depend on the processing

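Size factors, no filter, a stricter filter and leaving out mitochondrial genes kept all 31 members on the same side of 0 and of the threshold, with 0 called. The number of members called higher was 1 with DESeq2, 13 with library totals alone and 0 to 2 with each library left out (2 without SGC707 C). For the wider list it was 22 with library totals alone and 0 to 5 with each library left out, and 0 to 1 lower. Of all tested genes, 21.1% were called higher with library totals alone and 0.308% with DESeq2. Without SGC707 C, where the wider list had 5 higher and 1 lower, 3.73% of all tested genes were called higher and 5.53% lower. The median over the members was 0.85 with library totals alone and 0.067 after the GC and length correction. That of the wider list was 0.77 with library totals alone and 0.088 to 0.183 with each library left out. The log2 ratio of summed levels was 0.097, 0.79 with library totals alone, 0.024 without SGC707 A, 0.050 without SGC707 B and 0.21 without SGC707 C.

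Library totals alone made the negative log2 fold changes positive, at 0.71 for GSTP1, 0.56 for GCLM, 0.56 for GPX1, 0.55 for GPX4, 0.66 for TXN2, 0.57 for PRDX2, 0.67 for SOD1, 0.62 for CAT, 0.43 for TKT, 0.62 for ME1 and 0.46 for FTL. That setting moved the median of all tested genes by more than 0.1, and the cause was not tested. GSS was -0.027 in limma-voom and -0.019 after the GC correction, where FTH1 was -0.13.

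With each library left out, values ran across 0 for FTH1 (-0.077 to 0.080), GCLM (-0.30 to 0.050), GPX1 (-0.33 to 0.049), GPX4 (-0.35 to 0.045), GSS (-0.22 to 0.28), GSTP1 (-0.35 to 0.32), ME1 (-0.18 to 0.055), NFE2L2 (-0.12 to 0.43), PRDX2 (-0.31 to 0.11), SOD1 (-0.058 to 0.063) and TXN2 (-0.17 to 0.058). Of the other members, GCLC was 0.41 without SGC707 A, GSR 0.10 and MGST3 0.13 without DMSO B, TXN 0.16, TKT -0.46 and FTL -0.52 without SGC707 A, and CAT -0.11 without DMSO A, -0.0026 without DMSO B and -0.098 without SGC707 C. After the GC correction MGST3 was 0.070, TXN 0.067, PGD 0.062, FTL -0.44 and SOD1 -0.20. Correlations of same-letter deviations were 0.0795, -0.0228 and 0.0998, and not every library correlated best with its own letter. From 3 libraries per group, these values cannot show whether the letters mark a shared culture or preparation. With the letter as a block, 0 members were called, the median was 0.18, GSS was -0.036 and PRDX1 was 0.68 (edgeR adjusted p = 0.227). HMOX1 and GPX8 were limited by depth.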

Other observations

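Related enzymes kept different proportions between libraries. Per kilobase, TXNRD1 stood at 11.3, 11.5 and 11.3 times the level of TXNRD2 in DMSO A, B and C and at 8.01, 15.1 and 21.8 times in SGC707 A, B and C. FTL stood at 2.18, 2.31 and 2.39 times FTH1 with DMSO and at 2.20, 2.10 and 1.24 times with SGC707, so only SGC707 C was far from the other 5 libraries. PRDX1 stood at 0.662, 0.551 and 0.496 times PRDX2 with DMSO and at 0.696, 0.949 and 1.70 times with SGC707, above every DMSO library in all 3. GCLC over GCLM was 2.450, 2.05 and 2.37 with DMSO and 2.455, 3.30 and 2.67 with SGC707, with DMSO A and SGC707 A nearly equal. The paired genes differ in GC content, at 44.8% for TXNRD1 and 62.6% for TXNRD2, and 56.3% for FTL and 50.1% for FTH1. It was 51.4% for PRDX1 and 58.6% for PRDX2, and 44.3% for GCLC and 37.3% for GCLM. The ratio farthest from the other libraries was in SGC707 C for TXNRD1 over TXNRD2, FTL over FTH1 and PRDX1 over PRDX2. The part of the GC trend of that library in these ratios was not tested. The ratios were chosen for related enzymes and were not tested, and no share over all gene pairs was made.

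The spread of the members was described within each group, with no test. The median coefficient of variation of the tested members was 11.6% with DMSO and 19.0% with SGC707, beside 13.03% and 21.6% over all tested genes. With DMSO it was lowest for PRDX1 (1.65%) and highest for NFE2L2 (42.6%). With SGC707 it was lowest for PGD (2.97%) and highest for PRDX5 (50.2%) and GSTP1 (49.8%).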
